A study of Mus musculus with 9 samples.

Results

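Livers of mice labelled Adipor2 knock-out were set against livers of wild-type mice after both had been injected with acetaminophen (APAP) and then with leonurine, with 2 libraries for each genotype. The genes described were the 9954 of 16857 in the deposited table that had an FPKM (fragments scaled by gene length and library size) of at least 1 in at least 2 of these 4 libraries. Of the 9996 genes at that minimum, 4 Y-linked genes and 38 genes of the Mup, Cyp2b, Cyp3a41, Cyp3a44, Cyp4a12, Cyp2a4, Sult2a and Sult3a families were left out. Papolg lay just inside the minimum, with a second-highest value of 1.0007 FPKM, and Dixdc1 just outside it, with 0.9998. Of the 9954 genes, 155 met the minimum in the labelled knockouts alone, with both wild-type libraries below it, and 165 in wild type alone. Such a gene had to differ between the groups to be described, so its call is counted but supports nothing.

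All 9 libraries of the series came from whole liver of mice given APAP: 2 from wild type with leonurine, 2 from labelled knockouts with leonurine, 2 from labelled knockouts with saline and 3 from wild type with saline. No liver without APAP was analysed here. Leonurine is an alkaloid of motherwort, which the series title calls SCM-198, and the study asked what part the adiponectin receptor Adipor2 has in its action on drug-injured liver. Strain, sex, age, dose, time and the deleted part of Adipor2 were not given in the sources at hand. Whether each library is a separate animal is not stated in the labels, and the p-values therefore measure spread between samples that may be technical only.

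The genotypes also differed in Y-linked transcripts under leonurine. Ddx3y, an RNA helicase gene of the Y chromosome, was 10.6 and 10.2 FPKM in wild type and 0 in both labelled knockouts, at least 1249-fold lower if both knockout libraries together are credited with the floor of 3 fragments. Ddx3y, Kdm5d, Uty and Eif2s3y together gave 4174 and 4154 fragments in wild type and 0 and 2 in the labelled knockouts, against 4476 to 5275 in the 5 saline libraries of both genotypes. The labelled genotype and this mismatch coincided in all 4 leonurine libraries, and they cannot be told apart in any difference between them.

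APAP is oxidised by cytochrome P450 enzymes to a reactive product that glutathione captures, and an overdose exhausts glutathione and kills hepatocytes around the central vein. Injured and inflamed liver switches to making acute phase proteins, driven by interleukin-6 through STAT3 and by interleukin-1 through NF-kB, while genes of drug metabolism and bile acid synthesis are commonly turned down. Adipor2 is abundant in liver and is known for its link to PPARalpha and fatty acid oxidation. In mice many liver genes, P450s above all, differ between the sexes with the pattern of growth hormone secretion.

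Adipor2 itself (chromosome 6, 119353150 to 119417699, GRCm38.p6) was expressed in every library. It was 78.5 and 88.2 FPKM in wild type and 75.7 and 85.0 in labelled knockouts under leonurine, and these values overlapped. Under saline it was 141, 126 and 135 FPKM in wild type and 70.1 and 76.0 in labelled knockouts, which did not overlap. The difference in limma on log2(FPKM + 1) was -0.05 (SE 0.17, adjusted p = 0.876) under leonurine and -0.87 (adjusted p = 0.107) under saline. The leonurine value was 0.03 without wild-type leonurine replicate 2 or without labelled knockout leonurine replicate 1. Values over the whole gene do not show whether a part of it was deleted, so the word labelled is kept before knockout.

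The libraries held 35316653 to 38996734 fragments each. Alb, the albumin gene and a defining hepatocyte marker, was 26493 to 67808 FPKM across the 9 libraries, the level of a liver sample. The first principal component held 38.3% of the variance in log2(FPKM + 1), and on it the wild-type leonurine libraries lay at -26.4 and -52.2, the labelled knockouts with leonurine at 35.0 and 18.1 and the saline libraries at 0.8 to 10.4. The spread inside groups was unequal. The 2 wild-type leonurine libraries were at least 1 apart on the log2 scale in 417 genes described here and the 2 labelled knockouts in 286, against 211 for the 2 labelled knockouts with saline and 41 to 77 for pairs of wild-type saline libraries.

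A gene is said to have risen or fallen where it was higher or lower in labelled knockouts than in wild type under leonurine at an adjusted p under 0.05, by limma with Benjamini-Hochberg adjustment over all 10451 genes tested. By this rule 707 genes rose and 529 fell, 57.2% of the 1236 called being higher. Over all genes tested, 12.2% were called, 6.99% higher and 5.25% lower, beside 12.4% of the genes described. The difference was at least 1 on the log2 scale in 649 of the called genes and at least 2 in 136. The 1236 include 64 genes that met the minimum in labelled knockouts alone and 66 that met it in wild type alone, and 643 rises and 463 falls are left without them. Among the genes named below, Abcb1a, Ifit3b and Pnpla3 are of the former kind and Asns, Mmp8 and Tnfaip3 of the latter, and others are marked where they are described. Counts below for lists of genes include them: leaving them out takes 1 call from each of 11 lists and 5 calls from the list of female-biased genes. The groups did not overlap for any of the 1236, a property that 52.1% of all genes tested had. The median difference over the 9954 genes was 0.01. Abundant genes were called more often, and upward: at a mean of 50 FPKM or more 203 rose and 45 fell (24.2% called), and below 2 FPKM 62 rose and 72 fell (8.61%).

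These counts rested on the few libraries. They were 533 called without wild-type leonurine replicate 2 (253 higher, 280 lower), 306 without labelled knockout leonurine replicate 1 (158 and 148) and 820 without wild-type saline replicate 3, while leaving out wild-type leonurine replicate 1 gave 1510 (1120 and 390). Called genes were spread over the chromosomes, from 9.38% of genes on chromosome 16 to 14.8% on chromosome 6, with 13.4% (36 of 268) on the X chromosome. Without the 19 called genes on the lists of sex-biased or X-linked genes, 1217 calls were left.

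The same contrast of genotypes under saline gave 1 call among these genes (0.0191% of all tested; 1278 at an unadjusted p under 0.05). That count was 0 without either labelled knockout leonurine library or any of the 3 wild-type saline libraries, 5 without either wild-type leonurine library, 9 and 13 without labelled knockout saline replicates 1 and 2, and 53 with the 5 saline libraries alone. Of the 1236 genes called under leonurine, 1218 had a smaller difference under saline and 528 had the opposite sign there. These genes were picked for their difference under leonurine, so the count of 1218 follows largely from that choice. The shares over all genes tested are not given here, and neither count supports a difference between the contrasts. A test of the difference between both genotype contrasts called 353 genes, 163 positive and 190 negative (3.74% of all tested, 1.71% positive and 2.03% negative), of which 310 were among the 1236. That count was 551 (344 and 207) with median-ratio scaling and 501 (290 and 211) with quantile normalization, so that the share of positive calls moved from 46.2% to 62.4% and 57.9%. Leaving out 1 library gave 85 (labelled knockout saline replicate 1), 98, 112 and 195 (wild-type saline replicates 2, 3 and 1), 178 (labelled knockout leonurine replicate 1), 221 (wild-type leonurine replicate 2) and 789 (wild-type leonurine replicate 1).

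**Figure D1:**
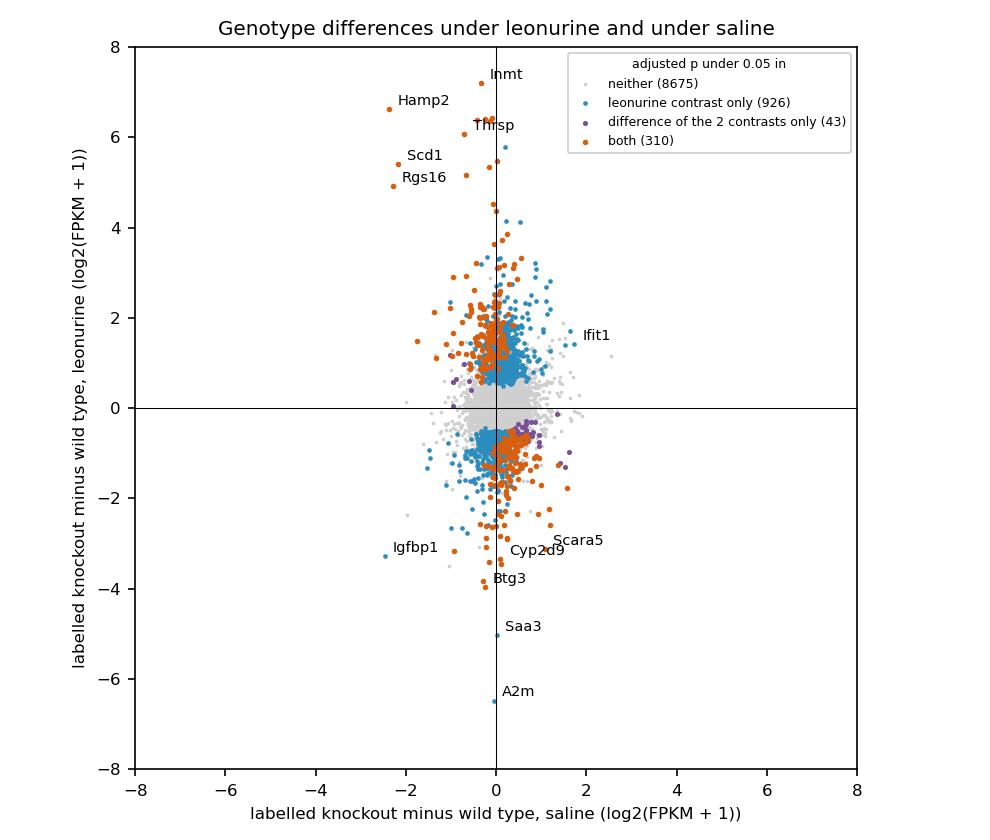
Difference between labelled knockout and wild type in log2(FPKM + 1) under leonurine (vertical axis) against the same difference under saline (horizontal axis), 1 point per gene, coloured by which tests it passed. The vertical spread is wider than the horizontal one, 926 genes passed under leonurine but not for the difference between the contrasts, 310 passed both and 43 only the latter.

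Set beside the 5 saline libraries, the called genes differed in which leonurine group stood outside their range. Of the 707 that rose, 346 had both wild-type leonurine libraries below every saline library while the labelled knockouts stayed among them, 184 had wild type below and labelled knockouts above, and 125 had only the labelled knockouts above. Of the 529 that fell, 187 had only the labelled knockouts below, 184 only the wild type above and 117 both. Of all 9954 genes, 14.7% had only wild type below the saline libraries and 14.3% only the labelled knockouts, 4.59% only wild type above and 3.21% only the labelled knockouts. Lying below was thus commoner than lying above in both leonurine groups: wild type lay below in 24.5% and above in 6.67%, and labelled knockouts in 23.5% and 5.90%. Positions rest on FPKM as deposited. Median-ratio size factors were 0.853 to 1.006 in the leonurine libraries and 1.009 to 1.125 in the saline ones. Positions after such scaling were not tested, here or in the lists below. Over all called genes, wild type with leonurine lay outside all 7 other libraries in 846 (68.4%) and labelled knockouts with leonurine in 626 (50.6%), against 19.9% and 18.1% of all 9954 genes.

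Among the 15 largest rises, Inmt (chromosome 6, 55170627 to 55174990), which methylates indole amines, was 12.2 and 0.426 FPKM in wild type and 933 and 435 in labelled knockouts, with 212 to 367 in the saline libraries. Wild type was thus below, and the labelled knockouts above, every saline library (log2 difference 7.20, SE 0.81, adjusted p = 0.00139). Car3, a carbonic anhydrase of hepatocytes, was 30.4 and 1.75 FPKM in wild type, 1125 and 572 in labelled knockouts and 555 to 942 with saline, so that only wild type stood apart (6.43, SE 0.87, adjusted p = 0.00315). Thrsp, a regulator of fat synthesis, was 9.34 and 4.997 FPKM against 536 and 519, with 67.9 to 221 under saline (6.07, SE 0.44, adjusted p = 8.09e-05).

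Hamp2 (chromosome 7, 30922372 to 30924181), a paralog of the iron hormone hepcidin, was 1.65 and 0.938 FPKM in wild type and 668 and 74.4 in labelled knockouts, with 1.28 to 31.9 under saline. The 2 labelled knockouts were far apart, yet both lay above all 7 other libraries (6.63, SE 0.96, adjusted p = 0.00386). Rgs16, a brake on G protein signalling, was 5.17 and 0.252 FPKM in wild type, 103 and 66.6 in labelled knockouts and 2.36 to 29.4 under saline (4.91, SE 0.64, adjusted p = 0.00257). Upp2, a uridine phosphorylase, was 8.52 and 0.556 FPKM against 84.4 and 90.1, with 34.4 to 44.6 under saline (4.52, SE 0.63, adjusted p = 0.00333). Cyp2a5, a coumarin-oxidising P450 whose reads can be shared with the closely related Cyp2a4, rose by 5.79. Its adjusted p was 0.00799, and 9.51e-05 to 0.0686 over the alternatives, the highest being without labelled knockout leonurine replicate 1, and its difference was 3.83 without wild-type leonurine replicate 2.

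A further group among the 15 largest rises was low in wild type and in all saline libraries. A1bg, a plasma glycoprotein gene, was 0.594 and 0.0421 FPKM in wild type and 172 and 68.2 in labelled knockouts, with at most 0.426 under saline (a log2 difference of 6.41). Cyp2c69 was 1.76 and 0.0868 FPKM against 188 and 110, with at most 1.60 under saline (6.39, SE 0.44, adjusted p = 5.29e-05). Slc22a26, an organic anion transporter, was 1.51 and 0.125 FPKM against 79.3 and 56.5 (5.34, SE 0.35, adjusted p = 3.95e-05). Cyp2c40 and Cyp3a16 showed the same arrangement, with log2 differences of 5.17 and 5.47. A1bg and Cyp3a16 met the minimum in labelled knockouts alone. These 5, and Hamp2 with them, are known as female-biased genes of mouse liver. In each of these 6 genes the labelled knockouts with leonurine, which lacked Y-linked transcripts, stood above all other libraries. Their place above wild type with leonurine follows from the choice of these genes as largest rises and supports nothing. What part the mismatch in Y-linked transcripts has in them was not tested.

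Among the largest falls, the clearest separation was in Tifa (chromosome 3, 127788875 to 127798394), an adaptor that links innate sensors to NF-kB. It was 61.4 and 67.0 FPKM in wild type and 4.12 and 5.82 in labelled knockouts, and 3.56 to 4.79 under saline. Only wild type with leonurine differed, 12.9-fold above the labelled knockouts (log2 difference -3.46, SE 0.18, adjusted p = 9.7e-06). Sult1e1, which sulfates estrogens, had the same shape, with 21.2 and 22.4 FPKM against 0.557 and 1.92 and at most 0.943 under saline (-3.42, SE 0.32, adjusted p = 0.00046).

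Other falls had the labelled knockouts below the saline range as well as wild type above it. Btg3, an antiproliferative gene, was 26.3 and 49.4 FPKM in wild type and 1.32 and 1.41 in labelled knockouts, between which the saline libraries lay at 5.84 to 11.3 (-3.97, SE 0.32, adjusted p = 0.000166). Ly6d, a surface protein of the Ly6 family, was 277 and 278 FPKM against 13.8 and 25.1, with 28.1 to 69.0 under saline (-3.82, SE 0.39, adjusted p = 0.000817). Scara5, a ferritin receptor, and Spink1, a trypsin inhibitor, fell by similar amounts (log2 differences of -3.13 and -3.09), and Scara5 met the minimum in wild type alone. In another arrangement only the labelled knockouts were apart. Serpina1e, an alpha-1-antitrypsin gene whose reads can be shared with its close copies, was 5998 and 8961 FPKM in wild type, 707 and 1389 in labelled knockouts and 5571 to 9067 under saline (-2.89, SE 0.37, adjusted p = 0.00239). Igfbp1, which binds insulin-like growth factors, fell by 3.29 (adjusted p = 0.0349, and 0.0266 to 0.205 over the alternatives). Its call ended without wild-type leonurine replicate 1 (0.125) or 2 (0.0719), labelled knockout leonurine replicate 1 (0.205) or wild-type saline replicate 3 (0.0553).

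**Figure D2:**
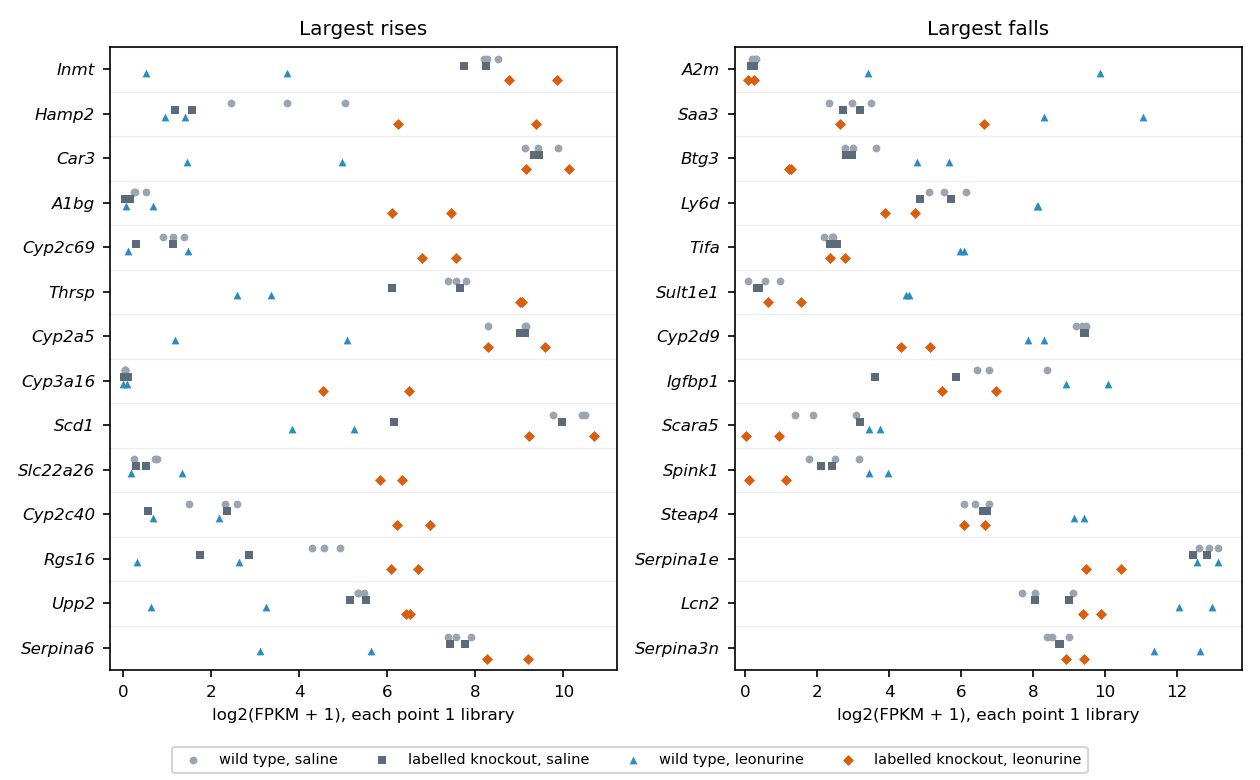
log2(FPKM + 1) in each of the 9 libraries (horizontal axis) for 14 of the 15 largest rises and 14 of the 15 largest falls, 1 row per gene, 1 point per library and 1 symbol per group. Among the rises Car3 has only the wild-type leonurine libraries apart from the rest, and A1bg only the labelled knockouts with leonurine, at 68.2 to 172 FPKM. A1bg met the minimum in labelled knockouts alone.

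Positive acute phase genes, which rise in inflamed liver, made up the largest set of falls among the lists. Of 27 positive acute phase genes, 18 fell and 0 rose, with a median of -1.65 against 0.01 over all genes tested. Steap4, a metalloreductase induced by interleukin-6 and tumor necrosis factor, was 682 and 557 FPKM in wild type and 66.6 and 99.7 in labelled knockouts, with 67.0 to 107 under saline. Its labelled knockouts overlapped the saline libraries and its wild type was 7.45-fold above the labelled knockouts (-2.90, SE 0.27, adjusted p = 0.000427). Serpina3n, a protease inhibitor, was 2647 and 6341 FPKM against 485 and 677, with 336 to 511 under saline (-2.84, SE 0.39, adjusted p = 0.00322). Lcn2, the iron-scavenging lipocalin, was 4251 and 7994 FPKM against 943 and 669, and here both genotypes lay above the 204 to 545 of saline (-2.87, SE 0.50, adjusted p = 0.0088).

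Cd14, a co-receptor for lipopolysaccharide, was 22.4 and 53.4 FPKM in wild type and 3.66 and 5.84 in labelled knockouts (-2.66, SE 0.35, adjusted p = 0.00265). Lrg1, a leucine-rich plasma glycoprotein, was 2103 and 2791 FPKM against 346 and 710 (-2.29, SE 0.37, adjusted p = 0.00691). The other 13 that fell were A2m, Saa3, Apcs, haptoglobin (Hp), the fibrinogen chains Fga, Fgb and Fgg, Orm1, Serpina3k, Serpina3m, the lipopolysaccharide-binding protein Lbp, hemopexin (Hpx) and ceruloplasmin (Cp), the last by 1.06. Across the whole list wild type with leonurine lay above every saline library in 26 of 27 genes and the labelled knockouts in 6 of 27. Under saline the median difference between genotypes was 0.08, and 0 of the 27 were called, in a contrast that called 1 of the 9954 genes. Of the 27, 4 passed the test of the difference between the contrasts, which 3.74% of all genes tested passed.

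The most extreme of them differed widely between replicates. A2m, alpha-2-macroglobulin, was 9.58 and 933 FPKM in wild type, and at most 0.237 in the other 7 libraries (a log2 difference of -6.48, and of -3.25 without wild-type leonurine replicate 2). It met the minimum in wild type alone. Saa3 was 312 and 2112 FPKM against 98.4 and 5.15 (-5.04, adjusted p = 0.0237, and 0.0102 to 0.141). Without wild-type leonurine replicate 2 its adjusted p was 0.141, and without labelled knockout leonurine replicate 2 it was 0.0735 at a difference of -3.03. The near-identical Saa1 and Saa2 did not pass, at -3.08 (adjusted p = 0.0797) and -3.51 (0.0953). Leaving out labelled knockout leonurine replicate 1 left 6 calls on the list, and leaving out wild-type leonurine replicate 2 left 9, every call downward.

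Promoters of this set were read from RefSeq (build GRCm38.p6), from 250 bases before to 50 after the annotated start, to show the letters that STAT and NF-kB factors can recognise in Steap4 and Serpina3n. These were picked because they hold matches: the windows of Lcn2 and Lrg1, whose calls also outlived each removal of a single library, hold none. Both are on the plus strand, Steap4 at chr5:7960222-7960521 and Serpina3n at chr12:104406458-104406757. Capitals mark matches: in Steap4 first an NF-kB match, which starts 226 bases before the start site, then a STAT match at 116 bases, and in Serpina3n an NF-kB match at 170 bases.
Steap4: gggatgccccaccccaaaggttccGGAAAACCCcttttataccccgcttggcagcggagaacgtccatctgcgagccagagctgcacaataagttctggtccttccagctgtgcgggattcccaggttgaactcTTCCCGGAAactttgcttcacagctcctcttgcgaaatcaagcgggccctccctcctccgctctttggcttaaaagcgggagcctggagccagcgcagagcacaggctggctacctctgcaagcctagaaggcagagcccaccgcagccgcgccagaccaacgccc
Serpina3n: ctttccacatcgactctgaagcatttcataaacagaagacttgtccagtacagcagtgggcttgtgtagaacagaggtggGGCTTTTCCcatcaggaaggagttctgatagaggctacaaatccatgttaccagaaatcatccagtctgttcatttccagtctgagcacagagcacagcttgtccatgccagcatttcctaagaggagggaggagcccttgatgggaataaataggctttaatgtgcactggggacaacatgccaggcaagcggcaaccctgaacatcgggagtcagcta

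Over the 11 promoters on hand for the 18 acute phase genes that fell, the STAT motif TTCNNNGAA stood in 4 (36.4%; Apcs, Fga, Fgb and Steap4), against 934 of all 13211 promoters (7.07%). The NF-kB motif GGNNTTTCC stood in 3 (27.3%; Saa3, Serpina3n and Steap4), against 775 of all (5.87%). Both were searched on both strands, and neither overlapped the other in Steap4. The C/EBP motif TTGCGCAA was in none of the 11 windows and in 0.257% of all promoters. A match is a description of these letters and not of a factor bound there.

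Proteins that inflammation lowers moved less uniformly. Of 11 negative acute phase genes 3 rose and 1 fell. Serpina6, which carries corticosteroids in blood, was 48.5 and 7.61 FPKM in wild type, 588 and 308 in labelled knockouts and 165 to 240 under saline (4.37, SE 0.66, adjusted p = 0.00469). Serpina7, which carries thyroxine, fell, with 56.1 and 49.4 FPKM in wild type and 6.52 and 9.76 in labelled knockouts (-2.58, SE 0.33, adjusted p = 0.00239). Igfals and transthyretin (Ttr) rose by 1.88 and 1.38. Their calls ended without labelled knockout leonurine replicate 1 (adjusted p = 0.0767 and 0.126) and that of Ttr also without wild-type leonurine replicate 2 (0.0539, at 0.91), within ranges of 0.000949 to 0.0767 and 0.00165 to 0.145. The list gave 2 calls without labelled knockout leonurine replicate 1 and 7 without wild-type leonurine replicate 1.

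Among receptors and brakes of cytokine signalling, 5 of 16 fell and 0 rose, with a median of -0.76. Osmr, the oncostatin M receptor, was 6.23 and 5.59 FPKM in wild type and 0.847 and 1.54 in labelled knockouts, with 0.689 to 1.12 under saline (-1.67, SE 0.19, adjusted p = 0.00141). Il1r1, the interleukin-1 receptor, was 38.5 and 33.7 FPKM against 8.07 and 13.8, with 12.9 to 18.9 under saline (-1.68, SE 0.24, adjusted p = 0.00406). In both genes wild type alone stood above the saline libraries. The other 3 were Il1rn, the interleukin-1 receptor antagonist, Socs3, which shuts down STAT3 signalling, and Tnfrsf1a, the receptor for tumor necrosis factor. The count was 3 without wild-type leonurine replicate 2 or any of the 3 wild-type saline libraries and 2 without labelled knockout leonurine replicate 1, and the median was -0.50 and -0.39 without replicate 1 of the wild-type or of the labelled knockout leonurine libraries.

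Of 22 genes of NF-kB signalling and innate sensing, 4 fell and 0 rose (18.2% against 12.2% of all genes tested), with a median of -0.51. Besides Tifa these were Bcl3, an atypical inhibitor of NF-kB (71.2 and 36.2 FPKM against 7.43 and 16.9, a log2 difference of -2.08), the adhesion molecule Icam1 (-1.87) and Tnfaip3, which ends NF-kB signalling (-1.48). Only the call of Tifa outlived each removal of a single library. The count was 2 without wild-type leonurine replicate 1 (median -0.19), labelled knockout leonurine replicate 2 or any of the 3 wild-type saline libraries, 1 without labelled knockout leonurine replicate 1 and 9 without wild-type leonurine replicate 2. Among 12 chemokine genes Cxcl14 and Ccl6 fell by 2.58 and 1.26. Ccl5, the one counted as a rise, met the minimum in labelled knockouts alone, with 0.534 and 0 FPKM in wild type and 3.35 and 4.49 in labelled knockouts. That count of 3 was 1 without labelled knockout leonurine replicate 1 and 8 without wild-type leonurine replicate 1.

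**Figure D3:**
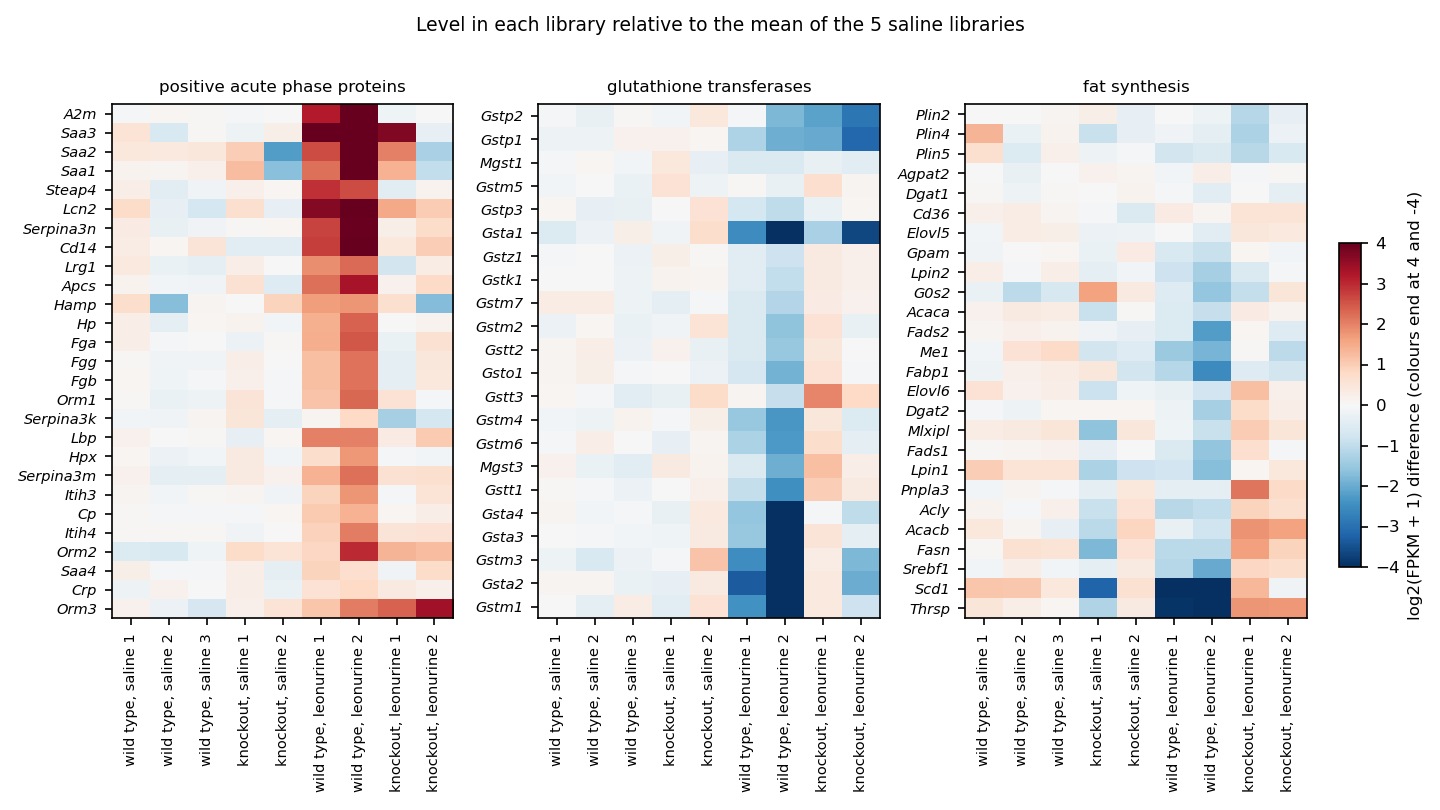
Heat maps of log2(FPKM + 1) relative to the mean of the 5 saline libraries for positive acute phase genes, glutathione transferases and fat synthesis genes, 1 row per gene and 1 column per library. Acute phase genes are high in both wild-type leonurine libraries, above every saline library in 26 of 27 genes, and glutathione transferases are low there, below every saline library in 19 of 22.

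Of 20 genes that oxidise, conjugate or export APAP, 8 rose and 0 fell, with a median of 0.87. Ugt1a1 and Ugt1a5 add glucuronic acid, and reads of the overlapping Ugt1a genes may be split between them. Ugt1a1 was 44.0 and 24.7 FPKM in wild type, 108 in both labelled knockouts and 60.3 to 83.0 under saline (1.68, SE 0.27, adjusted p = 0.00601). Ugt1a5 was 3.34 and 3.45 FPKM against 45.5 and 22.2, with 2.01 to 9.83 under saline (2.90, SE 0.40, adjusted p = 0.00333). Papss2, which makes the sulfate donor for sulfation, Cyp3a25, Cyp1a2, Gstm1, Gsta3 and the exporter Abcc3 also rose. Cyp2e1, the main enzyme that activates APAP, did not pass, at 1422 and 973 FPKM against 2035 and 2585 and 2112 to 2999 under saline (0.96, adjusted p = 0.063). Without labelled knockout leonurine replicate 1 the list gave 2 calls, and its median was 0.26 without wild-type leonurine replicate 2 and 1.32 without replicate 1.

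Of 37 other P450 genes and their regulators outside the families left out, 15 rose and 2 fell, with a median of 0.83. Cyp2g1 was 0.32 and 0 FPKM in wild type and 14.9 and 5.63 in labelled knockouts, with 0.564 to 0.994 under saline, and met the minimum in labelled knockouts alone. Of the Cyp2c family, whose members are close enough to share reads, 8 rose: Cyp2c69, Cyp2c40, Cyp2c37, Cyp2c68, Cyp2c50, Cyp2c54, Cyp2c38 and Cyp2c39. Nr1i3, the nuclear receptor CAR that drives several of these enzymes, rose by 1.21. Cyp2d9, known as male-biased, fell, with 317 and 230 FPKM in wild type, 19.2 and 33.7 in labelled knockouts and 584 to 703 under saline (-3.35, SE 0.27, adjusted p = 0.00019). Both groups with leonurine were thus below every saline library. Without labelled knockout leonurine replicate 1 the list gave 4 higher and 1 lower, without wild-type leonurine replicate 2 it gave 9 and 1, and its median was 1.41 without wild-type leonurine replicate 1.

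Glutathione transferases, which couple glutathione to reactive products, rose in 14 of 22 genes, and 0 fell, with a median of 1.40. Wild type with leonurine lay below every saline library in 19 of the 22, and the labelled knockouts lay above in 3. Of the 22, 0 passed the test of the difference between the contrasts. Gstt1 was 83.9 and 28.6 FPKM in wild type, 318 and 208 in labelled knockouts and 138 to 185 under saline (2.36, SE 0.42, adjusted p = 0.009). Gstm1, one of a family of close copies, was 365 and 74.2 FPKM against 2536 and 1090, with 1420 to 2892 under saline (3.33, SE 0.69, adjusted p = 0.0155). No call on this list outlived every removal of a library: 0 were left without labelled knockout leonurine replicate 1, and 2 higher and 1 lower without wild-type leonurine replicate 2, where the median was 0.87. Without labelled knockout leonurine replicate 1 the adjusted p of Gstt1 was 0.0716 (range 0.000335 to 0.0716) and that of Gstm1 0.11 (range 0.00181 to 0.11), and without wild-type leonurine replicate 2 Gstm1 had a difference of 2.19 (0.0594).

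Targets of Nrf2, the sensor of electrophile stress, and genes of glutathione synthesis gave 2 rises in 16 genes, a share of 12.5% against 12.2% of all genes tested. These were Ces1g, a carboxylesterase (52.1 and 12.4 FPKM against 277 and 196, a log2 difference of 3.13), and the quinone reductase Nqo1 (3.55 and 1.12 FPKM against 13.1 and 7.17, 1.79). Both calls ended without labelled knockout leonurine replicate 1, at adjusted p = 0.0569 (range 8.12e-05 to 0.0569) and 0.0882 (0.00218 to 0.0882), and that of Nqo1 also without wild-type leonurine replicate 2 (0.0554). Without wild-type leonurine replicate 1 the list gave 4 calls.

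Bile acid genes rose in 9 of 22 members and fell in 0, with a median of 0.51. Cyp7a1 (chromosome 4, 6265612 to 6275632), the rate-limiting enzyme of bile acid synthesis, was 5.31 and 0.473 FPKM in wild type and 92.3 and 28.9 in labelled knockouts. Saline libraries held 7.82 to 19.1 FPKM, so that wild type lay below and the labelled knockouts above all of them (4.11, SE 0.68, adjusted p = 0.00723, and 0.0569 without labelled knockout leonurine replicate 1, range 0.00165 to 0.0569). Slc27a5, which activates bile acids for conjugation, was 161 and 150 FPKM against 363 and 373, with 212 to 284 under saline (1.24, SE 0.19, adjusted p = 0.00469). Cyp8b1, which sets the share of cholic acid, Cyp27a1, Akr1d1, Hsd3b7, the uptake transporter Slc10a1, Abcb1a and the co-receptor Klb made up the rest. The count was 1 without labelled knockout leonurine replicate 1, 5 when replicate 2 of the labelled knockouts with leonurine was left out and 5 (4 higher and 1 lower) without wild-type leonurine replicate 2, and the median was 0.31 and 0.83 without wild-type leonurine replicates 2 and 1.

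Fat synthesis genes rose in 11 of 26 members and fell in 0, with a median of 1.19. Of the 26, 7 passed the test of the difference from saline. The 2 labelled knockout saline libraries often lay on opposite sides of the saline mean, replicate 1 below it. On the log2 scale they were -1.79 and 0.57 for Fasn, -1.07 and 0.85 for Acacb and -1.19 and 0.34 for Thrsp. In others, such as Lpin1 (-1.26 and -0.83), both were on 1 side. The test was refitted without that replicate, but how many of the 7 calls were left is not given here. Srebf1, the transcription factor that drives them, was 15.2 and 7.68 FPKM in wild type, 62.4 and 56.8 in labelled knockouts and 26.0 to 44.1 under saline (2.35, SE 0.32, adjusted p = 0.00324). Scd1, the stearoyl-CoA desaturase (chromosome 19, 44394450 to 44407709), was 37.0 and 13.3 FPKM against 1651 and 597. Its saline libraries were far apart, 70.1 and 998 in labelled knockouts and 874 to 1431 in wild type (5.41, SE 1.03, adjusted p = 0.0118, range 0.00223 to 0.0867). The call of Scd1 ended without wild-type leonurine replicate 2 (0.0714) or labelled knockout leonurine replicate 1 (0.0867). Fatty acid synthase (Fasn) rose by 2.34, and Thrsp, Acacb, Acly, Pnpla3, Lpin1, Fads1, Dgat2 and Elovl6 rose too. The count was 2 without wild-type leonurine replicate 2 (median 0.74) or labelled knockout leonurine replicate 1 and 7 without wild-type saline replicate 3.

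Of 25 cholesterol synthesis genes 4 rose and 1 fell, with a median of 0.58. Sc5d, a sterol desaturase, was 37.9 and 34.3 FPKM in wild type, 166 and 108 in labelled knockouts and 65.8 to 104 under saline (1.86, SE 0.26, adjusted p = 0.00354). Insig1 and Tm7sf2 rose by 2.02 and 1.21, while Insig2 fell by 0.90. Labelled knockouts with leonurine lay above every saline library in 17 of the 25. The calls of Insig1 and Tm7sf2 ended without labelled knockout leonurine replicate 1 (adjusted p = 0.076 and 0.092 at 0.76) and that of Tm7sf2 without wild-type leonurine replicate 2 (0.0872), within ranges of 0.00807 to 0.076 and 0.00497 to 0.116. The list gave 1 call without the former library and 3 without the latter, and a median of 0.23 without wild-type leonurine replicate 1.

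Genes of the adiponectin receptor axis, from the receptors through AMP kinase to PPARalpha, gave 1 call in 20 members, a share of 5.0% against 12.2% of all genes tested. Ppara, whose product switches on fatty acid oxidation genes, was 21.87 and 16.01 FPKM in wild type, 29.79 and 49.99 in labelled knockouts and 34.4 to 43.5 under saline (1.01, SE 0.25, adjusted p = 0.0291, range 0.0230 to 0.155). Its call ended without wild-type leonurine replicate 2 (0.146), labelled knockout leonurine replicate 2 (0.104, at 0.64) or wild-type saline replicates 1, 2 and 3 (0.0528, 0.0503 and 0.053). Adipor1, the other adiponectin receptor, was 30.6 and 27.0 FPKM against 35.5 and 30.6 (0.19, adjusted p = 0.459). The AMP kinase subunits Prkaa1 and Prkaa2 differed by -0.13 and 0.18 (adjusted p = 0.627 and 0.467) and the adaptor Appl1 by -0.55 (0.116). Without wild-type leonurine replicate 1 this list gave 3 calls, 2 higher and 1 lower.

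Of 28 genes of fatty acid oxidation 3 rose, Ppara, Acaa1b and Hadh, and 0 fell, a share of 10.7% against 12.2% of all genes tested. Labelled knockouts lay below every saline library in 15 of the 28 (53.6%) and wild type in 11 (39.3%). Over all 9954 genes these shares were 23.5% and 24.5%. Acaa1b, a peroxisomal thiolase, was 46.5 and 7.603 FPKM in wild type, 204 and 164 in labelled knockouts and 186 to 309 under saline (3.18, SE 0.61, adjusted p = 0.012). Its adjusted p was 0.0805 without labelled knockout leonurine replicate 1 (range 6.07e-05 to 0.0805), and its difference was 1.95 without wild-type leonurine replicate 2. The list median was 0.09 as deposited and -0.22 after quantile normalization. It was -0.20 and -0.04 without wild-type or labelled knockout leonurine replicate 2, and 0.66 and 0.29 without wild-type or labelled knockout leonurine replicate 1. The count was 10 without wild-type leonurine replicate 1 and 1 without either labelled knockout leonurine library or any of the 3 wild-type saline libraries.

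Genes of sugar and amino acid metabolism moved in both directions, 8 of 25 rising and 3 falling, with a median of 0.58. Hal, which starts histidine breakdown, was 34.6 and 34.8 FPKM in wild type, 124 and 142 in labelled knockouts and 43.2 to 74.3 under saline (1.91, SE 0.25, adjusted p = 0.00262). Agxt, which transaminates glyoxylate, was 69.3 and 42.6 FPKM against 168 and 159 (1.57, SE 0.26, adjusted p = 0.00691). Pyruvate kinase (Pklr, 2.19), Gpt, Hpd, Fah and Ppp1r3b rose as well, and Igfbp1, the insulin receptor substrate Irs2 (-1.27) and Pfkfb3 (-1.10) fell. The call of Pklr ended without labelled knockout leonurine replicate 1 (adjusted p = 0.0569, range 0.00083 to 0.0569). The list gave 2 calls without that library, 6 without wild-type leonurine replicate 2 and 7 without wild-type saline replicate 3.

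In the urea cycle and among other periportal genes 6 of 16 rose and 2 fell, with a median of 0.63. Otc, an enzyme of the urea cycle on the X chromosome, was 32.01 and 16.001 FPKM in wild type, 75.9 and 79.3 in labelled knockouts and 57.5 to 70.3 under saline (1.73, SE 0.28, adjusted p = 0.00629). Ass1 and Asl of the same cycle rose by 1.41 and 0.78, as did the glutaminase Gls2 (1.60), Cyp2f2 and Hal. Cdh1, E-cadherin, fell, with 8.97 and 7.55 FPKM in wild type, 0.688 and 1.88 in labelled knockouts and 7.68 to 11.7 under saline, so that only the labelled knockouts stood apart (-2.07, SE 0.26, adjusted p = 0.00239). Of 13 pericentral genes, Rgn and Cyp1a2 rose by 1.49 and 2.38 and 0 fell, a share of 15.4% against 12.2% of all genes tested. Periportal calls numbered 3 without labelled knockout leonurine replicate 1 and 4 without wild-type leonurine replicate 2 (median 0.15). Pericentral calls numbered 0 without the former library, 1 without the latter or any wild-type saline library, and 4 without wild-type leonurine replicate 1 (median 0.71, against 0.36 with all libraries and 0.11 without replicate 2).

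Clock genes gave 8 rises and 3 falls in 17 members, with a median of 1.12. Dbp (chromosome 7, 45705100 to 45710203), an output of the clock that binds D-box sites, was 5.73 and 0.96 FPKM in wild type and 54.1 and 36.1 in labelled knockouts. Saline libraries held 23.9 to 43.0 FPKM, so that only wild type with leonurine stood apart (3.64, SE 0.49, adjusted p = 0.0031). Ciart, a repressor of the clock, was 1.98 and 0.583 FPKM against 11.7 and 12.98 (2.62, SE 0.31, adjusted p = 0.0019), and Noct, a rhythmic nocturnin, was 10.7 and 5.73 against 35.8 and 47.3 (2.25, SE 0.29, adjusted p = 0.00262). Hlf, a relative of Dbp, rose by 1.26 (adjusted p = 0.00281). Per3, Tef and Cry2 rose too, and Nfil3, Clock and Rora fell, by 1.37, 1.20 and 0.68. Wild type lay below every saline library in 12 of the 17 genes and labelled knockouts above in 0.

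The time of day of collection was not stated, and its part in the clock values was not tested. The count was 5 without labelled knockout leonurine replicate 1 (4 higher and 1 lower) and 6 without wild-type leonurine replicate 2 (5 and 1). The D-box TTATGTAA, searched on both strands, stood in 9 of 559 promoters of all genes that rose (1.61%), in 0.488% of those of genes that fell and in 0.704% of all promoters. Among 10 promoters of the called clock genes it stood in that of Per3 alone, and the E-box CACGTG stood in those of Tef and Ciart, against 9.2% of all promoters.

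In whole liver, fewer cells of a type and less RNA per cell cannot be told apart. Of 6 erythroid genes, which mark red cells, 5 rose: Hbb-bs was 52.5 and 58.4 FPKM in wild type, 451 and 224 in labelled knockouts and 83.4 to 217 under saline (2.50, SE 0.35, adjusted p = 0.00351). Hba-a1 was 13.6 and 14.4 FPKM against 160 and 56.5 (2.68, SE 0.45, adjusted p = 0.00743). Their near-identical copies Hbb-bt and Hba-a2, with which they can share reads, rose as well. Ahsp, the chaperone of alpha globin, is the fifth and met the minimum in labelled knockouts alone. The summed level of all 9 erythroid markers was 92.76 to 95.04 FPKM in wild type with leonurine, 363 to 787 in labelled knockouts with leonurine, 241 to 402 in labelled knockouts with saline and 175 to 222 in wild type with saline.

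Markers of resident and infiltrating cells were called in both directions. The share called was 6.67% for Kupffer cell and macrophage genes and 35.7% for sinusoidal endothelial genes, against 12.2% of all genes tested. Of 15 Kupffer cell and macrophage genes Cd163, the hemoglobin scavenger receptor, was the only call, at 12.98 and 15.56 FPKM in wild type, 5.10 and 5.55 in labelled knockouts and 9.81 to 13.6 under saline (-1.27, SE 0.15, adjusted p = 0.00204). Their median was 0.37, 0.10 with quantile normalization, 0.69 without wild-type leonurine replicate 1 with 7 calls, 0.06 without replicate 2 and 0.23 without labelled knockout leonurine replicate 2. Of 14 sinusoidal endothelial genes Fcgr2b, Oit3, Kdr and Gpr182 rose, by 0.65 to 1.05, and Lyve1 fell, from 10.5 and 9.87 FPKM to 4.224 and 4.999 (-0.998, SE 0.16, adjusted p = 0.00589). Those 5 calls were 1 without labelled knockout leonurine replicate 1, 2 without wild-type leonurine replicate 2 and 3 without wild-type saline replicate 3.

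Among 10 neutrophil genes Lyz2 rose and Mmp8 fell, among 15 stellate and fibroblast genes Ecm1 rose and Pdgfrb fell, and of 3 cholangiocyte genes Sox9 fell. None of these 5 calls outlived every removal of a library. Their adjusted p-values reached 0.226 (Lyz2), 0.111 (Mmp8), 0.234 (Ecm1), 0.112 (Pdgfrb) and 0.0715 (Sox9) at most over the alternatives. The 15 measured lymphocyte markers did not reach the minimum of 1 FPKM in 2 of the 4 libraries, and their summed level was 0.736 to 2.71 FPKM in wild type and 6.93 to 11.2 in labelled knockouts. Summed neutrophil markers were 91.9 to 214 FPKM in wild type and 96.1 to 213 in labelled knockouts, Kupffer cell markers 353 to 583 and 517 to 662, sinusoidal endothelial markers 161 to 194 and 219 to 250, stellate markers 143 to 199 and 158 to 163, and hepatocyte markers 49434 to 69984 and 92941 to 93268. A sum follows its most abundant genes. Of the 10 neutrophil genes 7 had a negative difference, with a list median of -0.80, and of -0.30 without labelled knockout leonurine replicate 1. Wild type lay above every saline library in 7 of these 10 genes and labelled knockouts in 3 (70.0% and 30.0%). Over all 9954 genes the shares were 6.67% and 5.90%. The part of cell composition in the gene groups described here was not tested.

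Iron genes gave Hamp2 as the 1 rise in 17 members and 2 falls, a share of 17.6% called against 12.2% of all genes tested. Slc11a2, the ferrous iron transporter DMT1, was 17.3 and 10.2 FPKM in wild type, 3.10 and 3.57 in labelled knockouts and 4.98 to 5.86 under saline (-1.73, SE 0.21, adjusted p = 0.00216). Slc39a14, a zinc and iron transporter, fell by 0.97 (adjusted p = 0.0248, range 0.00972 to 0.155), and not without wild-type leonurine replicate 2 (0.0897) or labelled knockout leonurine replicate 1 (0.129, at -0.63). It was also the only call among 7 metallothioneins and zinc transporters, a share of 14.3%. Mt1 was 818 and 1339 FPKM against 359 and 375, and both pairs lay above the saline libraries at 40.7 to 272 (-1.51, adjusted p = 0.149).

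Genes known to differ between the sexes, taken outside the families left out, were examined because of the mismatch in Y-linked transcripts. Of 19 female-biased genes 12 rose and 0 fell, with a median of 2.09. Among them 5, A1bg, Slc22a27, Hao2 and Cux2 included, met the minimum in labelled knockouts alone, and of the other 14 genes 7 rose, with a median of 1.87. Slc22a27, an organic anion transporter, was 0.87 and 0.18 FPKM in wild type, 22.8 and 18.4 in labelled knockouts and 0.411 to 1.06 under saline (a log2 difference of 3.85). Labelled knockouts with leonurine lay above every saline library in 18 of the 19 (94.7%) and wild type in 1 (5.26%). Over all 9954 genes these shares were 5.90% and 6.67%. The 18 genes include A1bg, Cyp2c69, Cyp2c40, Hao2, Slco1a4, Abcd2, Cux2, Fmo2, Atp6v0d2 and Prlr. The list thus shares members with those of P450s and growth hormone genes. Under saline the median difference of the list between genotypes was -0.13, and 9 of the 19 passed the test of the difference between the contrasts. Both the 9 and the 18 are counted over all 19 genes, with the 5 that met the minimum in labelled knockouts alone left in.

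Of 20 male-biased genes 4 fell and 3 rose, with a median of -0.51, and 3 fell and 3 rose, with a median of -0.14, among the 18 that did not meet the minimum in wild type alone. C6, a complement component, was 66.5 and 64.9 FPKM in wild type, 6.47 and 14.4 in labelled knockouts and 78.5 to 108 under saline (-2.64, SE 0.30, adjusted p = 0.00147). Susd4, a complement regulator, was 12.5 and 5.22 FPKM against 0.671 and 0.96, with 13.2 to 14.4 under saline, and met the minimum in wild type alone. Labelled knockouts lay below every saline library in 15 of the 20 and wild type in 14, that is 75.0% and 70.0%, against 23.5% and 24.5% of all 9954 genes. Cyp2d9 and the transporter Slco1a1 also fell, while Hsd3b2, Ugt2b1 and Cyp2f2 rose. The call of Slco1a1 (-2.48, adjusted p = 0.0149, range 0.0102 to 0.103) ended without wild-type leonurine replicate 1 (0.0519) or labelled knockout leonurine replicate 1 (0.103), and without the latter the list gave 3 calls, all lower. The median was -0.81 without wild-type leonurine replicate 2.

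Of 19 genes of the growth hormone axis 4 rose and 1 fell, a share of 26.3% against 12.2% of all genes tested. Ghr, the growth hormone receptor, was 40.5 and 25.9 FPKM in wild type, 99.5 and 102 in labelled knockouts and 88.8 to 110 under saline (1.61, SE 0.22, adjusted p = 0.0031). Igfals and Prlr rose too, and Igfbp1 fell. Without labelled knockout leonurine replicate 1 the count was 2, and it was 3 without wild-type leonurine replicate 2. The X-linked partners of the Y-linked genes, Ddx3x, Kdm5c, Kdm6a and Eif2s3x, did not pass, with differences of -0.31, -0.23, 0.18 and 0.38.

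**Figure D4:**
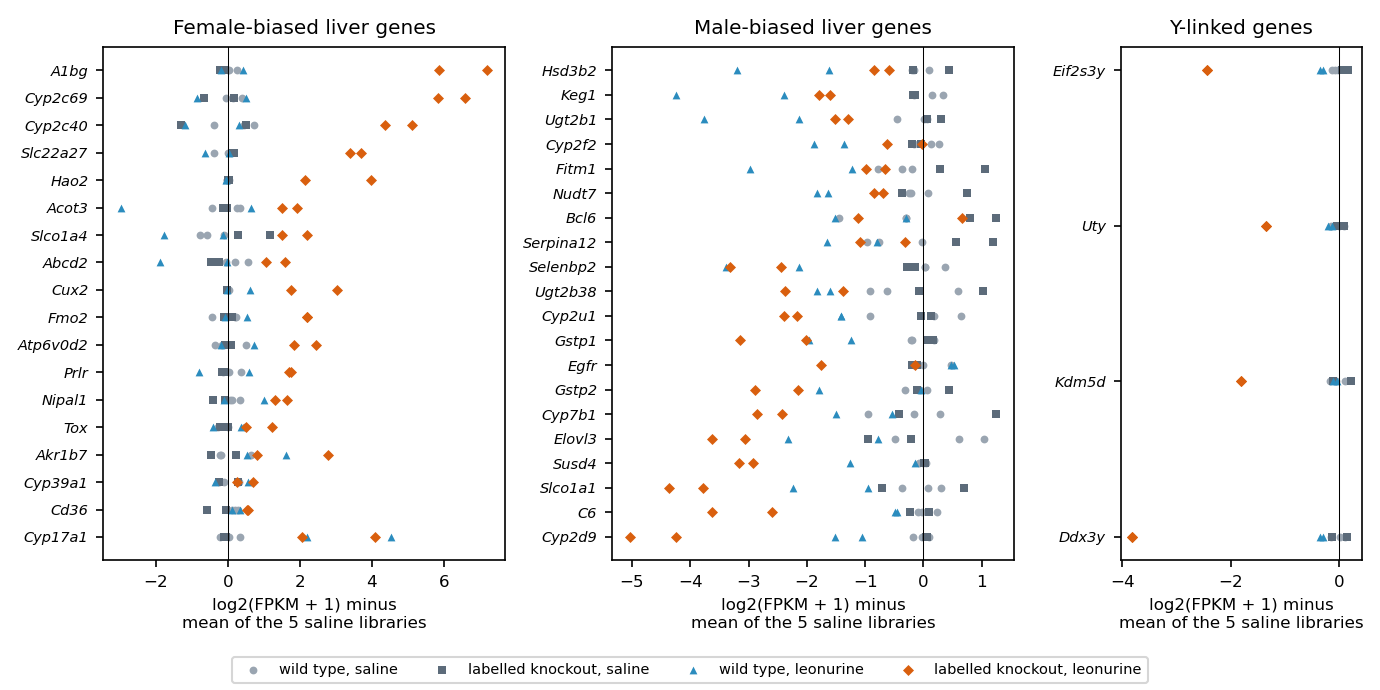
log2(FPKM + 1) relative to the mean of the 5 saline libraries for female-biased, male-biased and Y-linked genes, 1 row per gene, 1 point per library and 1 symbol per group. The labelled knockouts with leonurine lie to the right in the female-biased rows, above every saline library in 18 of the 19 genes of the list. Of these 19 genes 18 are drawn, and 5 met the minimum in labelled knockouts alone. In the Y-linked rows the labelled knockouts with leonurine lie to the left, and all 7 other libraries are close together.

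Of 14 heat shock genes 0 were called in limma, and 2 had an unadjusted p under 0.05. Their count was 1 with quantile normalization, in the downward direction, and 1 without wild-type leonurine replicate 1, upward. Hsp90aa1, the inducible form of a cytosolic chaperone, was 77.6 and 63.9 FPKM against 49.7 and 35.7 (-0.73, adjusted p = 0.109). Of 25 genes of endoplasmic reticulum and integrated stress, Asns, an asparagine synthetase gene driven by ATF4, fell from 4.06 and 3.67 to 0.274 and 0.975 FPKM, Manf and Xbp1 fell and Herpud1 rose. That count was 0 without labelled knockout leonurine replicate 1 (median -0.32, against -0.56), 1 without wild-type leonurine replicate 2 or any wild-type saline library and 8, all lower, without labelled knockout leonurine replicate 2 (median -0.87).

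Of 29 p53 targets and cell cycle genes Cdkn1a, the inhibitor p21, fell by 1.85 (37.0 and 32.2 FPKM against 6.24 and 12.4) and the cyclin Ccne1 by 1.13. The share called was 6.90%, against 12.2% of all genes tested. Of 13 immediate early genes Ier3 (14.3 and 5.76 FPKM against 1.34 and 0.96, a log2 difference of -2.25), Jun, Klf6 and Jund fell. None of these 6 calls outlived every removal of a library, with adjusted p-values of up to 0.228 (Cdkn1a), 0.134 (Ccne1), 0.0616 (Ier3), 0.127 (Jun), 0.19 (Klf6) and 0.157 (Jund) over the alternatives. The p53 list gave 0 calls without wild-type saline replicate 3 and 1, a fall, without either saline library of the labelled knockouts. Without wild-type leonurine replicate 1 it gave 1 rise and 0 falls. Its median was -0.36, and it turned to 0.12 when labelled knockout leonurine replicate 2 was left out and to 0.20 without wild-type leonurine replicate 1. The immediate early genes gave 0 calls without labelled knockout leonurine replicate 1 (median -0.13, against -0.62), 2 without labelled knockout leonurine replicate 2 or wild-type saline replicate 3 and 1 if wild-type leonurine replicate 1 was left out.

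Most interferon-induced genes had a positive difference, and 3 of 27 were called under leonurine, a share of 11.1% against 12.2% of all genes tested. Of 27 genes 25 had a positive difference under leonurine, where Ifit3, Ifit1 and Ifit3b rose. The list medians were 0.94 under leonurine and 1.10 under saline, against 0.01 and 0.08 over all genes tested. Ifit3, of a family of close copies, was 2.86 and 0.975 FPKM in wild type and 10.5 and 6.07 in labelled knockouts with leonurine, and 2.37 to 3.32 in wild type and 7.17 and 15.6 in labelled knockouts with saline. Of the 27, 0 passed the test of the difference between the contrasts, where Ifit3 stood at 0.07 (SE 0.53, adjusted p = 0.956). The count of 3 was 6 with quantile normalization, 10 without either labelled knockout saline library, 9 without wild-type leonurine replicate 1, 1 without labelled knockout leonurine replicate 2 or wild-type saline replicate 1 or 3 and 0 without wild-type leonurine replicate 2 (median 0.49) or labelled knockout leonurine replicate 1.

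Complement and coagulation genes gave 6 rises and 1 fall among 35 members. The mannose-binding lectin Mbl2 rose by 1.83, and F7, Proc, C8g, Serpind1 and F10 by 0.68 to 1.08. F7, which starts the extrinsic pathway of clotting, was 35.5 and 39.3 FPKM in wild type, 89.3 and 65.6 in labelled knockouts and 33.5 to 42.1 under saline (1.02, SE 0.20, adjusted p = 0.0121, and 0.0783 without labelled knockout leonurine replicate 1, range 0.0097 to 0.108). The list gave 1 call without that library and 4 without wild-type leonurine replicate 2. Of 32 subunits of the respiratory chain Sdhb alone rose (0.92), a share of 3.1% against 12.2% of all genes tested. This list had its median at 0.44 and wild type below every saline library in 25. It gave 10 calls without wild-type leonurine replicate 1 and 0 without any other single library, and the median was 0.26 when labelled knockout leonurine replicate 1 was left out and 0.20 without wild-type leonurine replicate 2. Of 19 hepatocyte transcription factors 1 rose and 1 fell, a share of 10.5% against 12.2% of all genes tested. Klf15 rose from 13.99 and 14.49 to 24.2 and 29.5 FPKM (0.86, SE 0.17, adjusted p = 0.012). Cebpd, a factor of the acute phase response, fell by 1.56, a call that ended without labelled knockout leonurine replicate 1 (at -1.59). Both calls ended with the 2 groups alone in the model (adjusted p = 0.106 for Klf15 and 0.0507 for Cebpd).

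**Figure D5:**
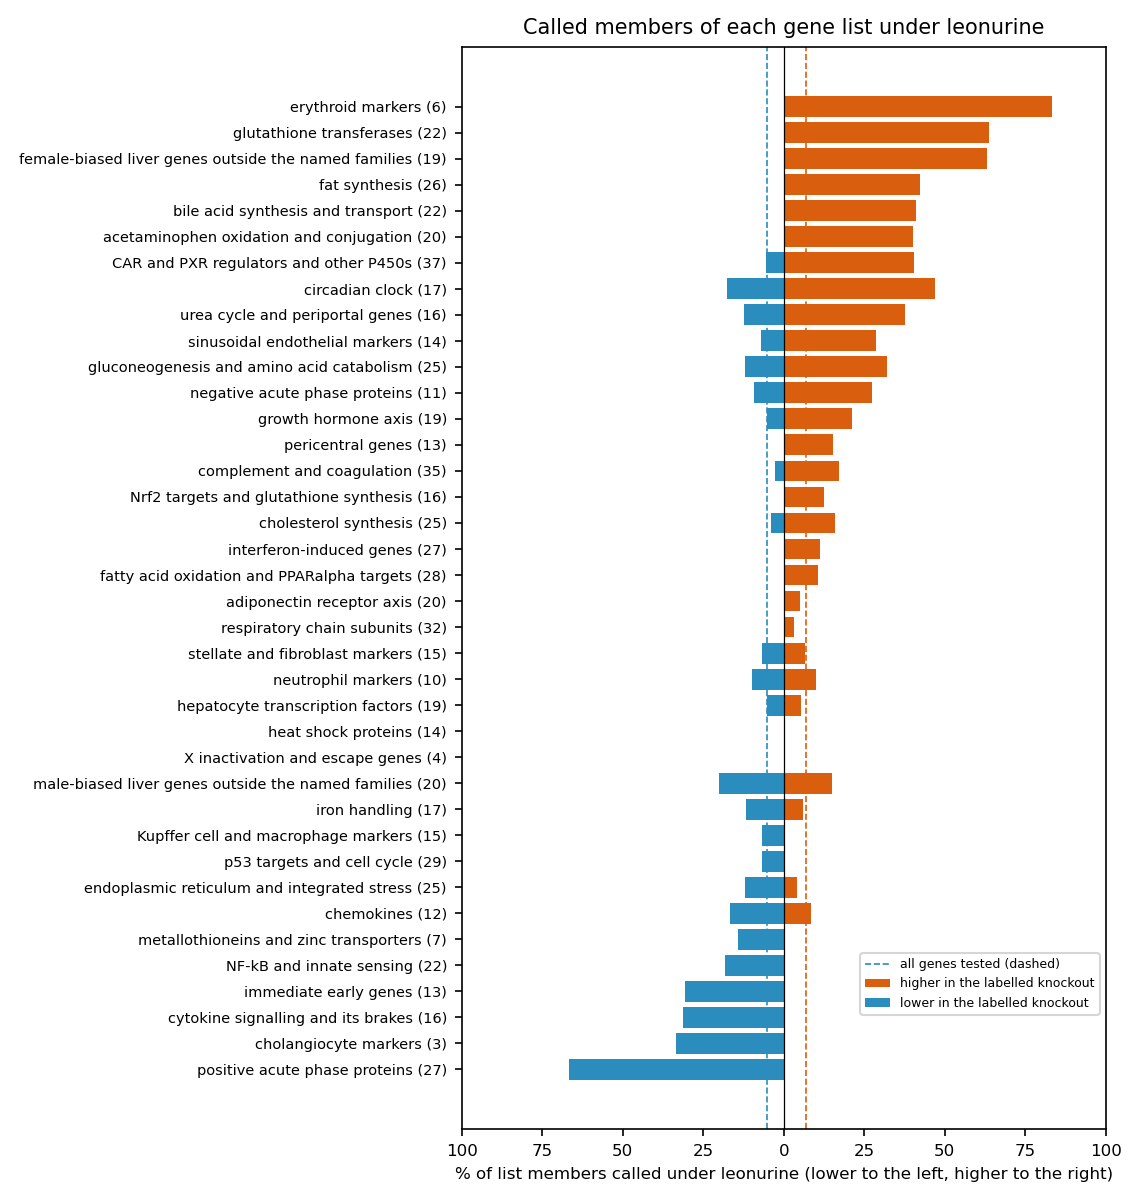
Percent of the members of each gene list that were called higher or lower in labelled knockouts under leonurine, as bars from 0, with dashed lines at the 6.99% and 5.25% called over all genes tested. Acute phase genes have the longest bar downward, 66.7%, and bars upward are longest for erythroid genes, glutathione transferases and female-biased genes. Genes that met the minimum in 1 group alone are counted.

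Of the 125 genes picked by rule, or in 1 case after its values were seen, that were called under leonurine, 58 outlived each removal of a single library. They include Inmt, Hamp2, Car3, Thrsp, Serpina6, Tifa, Btg3, Ly6d, Steap4, Lcn2, Serpina3n, Cd14, Lrg1, Osmr, Il1r1, Srebf1, Sc5d, Hal, Otc, Dbp, Ciart, Slc11a2, Ghr and all globin genes named. Without labelled knockout leonurine replicate 1, 63 of the 125 lost it, and without wild-type leonurine replicate 2, 39 did.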

How the data were processed

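RNA of 9 mouse liver samples was sequenced in 4 groups. The authors deposited 1 FPKM value per gene and library; per the submitters' processing notes, fastp, HISAT2, HTSeq, R 3.2.0 and mm10 were used, without role or order. No column of values was left without a sample (0 unmatched). FPKM divides by gene length and library size, so that a few abundant genes (the 10 highest took 20.5% to 30.0%) lower the rest. Fragments recovered from FPKM steps were whole in all 16857 genes within 0.0001, and give the depths. Floors and fragment totals cover counting error only.

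Genes at 1 FPKM or more in at least 2 of 9 libraries (10451) were tested as log2(FPKM + 1) with limma 3.58.1 (R 4.3.3), which understates changes of low genes. The model had 1 mean per group over all 9 libraries, a spread shared by all groups and a trend with expression, and p-values were Benjamini-Hochberg adjusted over all genes tested. SE is limma's standard error of a log2 difference. The scripts were tested on simulated data. Replicate numbers are those of the labels.

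Alternatives were a pseudocount of 0.1, no filter, a mean of 5 FPKM or more, median-ratio scaling, quantile normalization, a replicate block, the 2 groups alone and leaving out each library, 16 in all.

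Named genes were Adipor2 and tested members of its axis, the 15 largest called rises and falls whose groups did not overlap (passing over predicted genes, clones and pseudogenes), up to 4 members of each of 39 lists by smallest p, 5 called genes per direction of the difference between contrasts, and the Y-linked genes. Other list members are given as called. Some genes that enter the counts are not reported here by name or drawn. The genes, lists and rule were chosen with earlier results of these data known, and the lists of sex-biased genes were drawn outside the families left out. Coordinates and promoters are RefSeq's (GRCm38.p6), where 9939 of 9954 genes described matched an annotated gene.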

Additional observations from a re-analysis of the deposited data

Results flagged for a closer look

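The genotype contrast under leonurine was tested against that under saline, as the difference of both log2 differences, and limma with Benjamini-Hochberg adjustment called 353 genes. The 5 largest called positive differences among named genes were those of Hamp2 (8.996, SE 1.30, adjusted p = 0.0089), Scd1 (7.58, SE 1.39, adjusted p = 0.0224), Inmt (7.54, SE 1.10, adjusted p = 0.00933), Rgs16 (7.20, SE 0.86, adjusted p = 0.00353) and Cyp2c69 (6.81, SE 0.59, adjusted p = 0.000479). The 5 largest negative ones were those of Scara5 (-4.20, SE 0.64, adjusted p = 0.0117), Cxcl14 (-3.77), Btg3 (-3.72, adjusted p = 0.00277), Tifa (-3.56, SE 0.24, adjusted p = 0.000118) and Ly6d (-3.53). In Scd1 the labelled knockout saline replicates 1 and 2 were far apart, at -3.21 and 0.60 on the log2 scale relative to the saline mean. Wild-type saline libraries lay at 0.41 to 1.12 there.

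Of the 42 tested Y-linked and sex-dimorphic family genes left out by rule, 34 were called under leonurine. They were left out because the groups were seen not to match in Y-linked transcripts, so this count describes that choice and adds nothing to it. The labelled genotype and the mismatch cannot be told apart in these genes.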

How the results depend on the processing

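The count of 1236 genes called under leonurine was 682 with no filter on low values and 272 with only the 4 leonurine libraries in the model, and 306 to 1510 with 1 library left out. It stayed within 1.5 times under the other alternatives, between 855 with the replicate block and 1640 with median-ratio scaling. The saline count of 1 was 4 with quantile normalization, 0 with the replicate block, 53 with the 5 saline libraries alone and 0 to 13 with 1 library left out. The count of 353 for the difference was 83 with no filter, 551 with median-ratio scaling, 80 with the replicate block and 85 to 789 with 1 library left out. The difference of Adipor2 under leonurine, -0.05, turned to 0.03 without wild-type leonurine replicate 2 or without labelled knockout leonurine replicate 1, and ranged from -0.13 to 0.030 over all removals of 1 library. The cause of these moves was not tested.

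Same-numbered leonurine libraries correlated at 0.154 in their deviations from the group means and saline ones at 0.087 and 0.103, so the numbers were not taken to pair samples. Of 125 named genes called, 21 lost the call with the replicate block, 39 with no filter, 53 with the 2 groups alone, 5 with quantile normalization, 2 with a pseudocount of 0.1 and 0 with median-ratio scaling. Quantile normalization brought the list medians to 0.26 for bile acid genes, 0.36 for cholesterol synthesis, 0.35 for periportal genes, 0.11 for pericentral genes, 0.14 for respiratory chain subunits and -0.34 for hepatocyte transcription factors, the last from 0.01. Leaving out 1 leonurine library leaves 1 sample in its group, whose spread is then assumed to equal that of the others.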
